A study of Mus musculus with 6 samples.

Results

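The small leucine-rich proteoglycans are secreted proteins of the extracellular matrix, and 10 of their genes were followed in dermal fibroblasts of mice lacking thrombospondin-2. They are Dcn, Bgn, Lum, Fmod, Ogn, Omd, Aspn, Prelp, Podn and Kera, matched by gene symbol among the 23407 genes of the deposited table. Each was present with a mean of at least 10 normalised read counts over the 6 libraries, the filter for testing. The libraries are bulk RNA of dermal fibroblasts, 3 labelled TSP2KO and 3 labelled WT, grown from back skin of mice aged 12 weeks. After trypsin had freed the dermis from epidermis and fat, collagenase released the cells, which were cultured for 3 to 5 days, and RNA was taken at passage 1. All libraries share this isolation and culture and a poly(A) kit that keeps the strand. The labels describe neither the TSP2KO allele nor the strain, and leave unsaid whether each library had its own animal. The p-values therefore cover only the spread among the libraries at hand, part of which may be technical.

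Proteins of this family are built of leucine-rich repeats that fold into a curved solenoid, and most carry glycosaminoglycan chains. They bind collagen fibrils along their length and influence how fibrils assemble, how thick they become and how evenly they are spaced. Decorin, biglycan and asporin form class I of the family. Class II holds lumican, fibromodulin, keratocan, PRELP and osteomodulin, class III holds osteoglycin (mimecan), and podocan belongs to a later described class. In skin, decorin is the best known member, and mice without decorin have fragile skin with irregular collagen fibrils. Thrombospondin-2 is a matricellular glycoprotein of connective tissue, and mice without it also have irregular collagen fibrils in the skin.

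Estimated depth ranged from 14776502 reads in TSP2KO 3 to 34599855 reads in WT 2. Thbs2, the gene for thrombospondin-2, had 5177, 6635 and 4891 normalised counts in TSP2KO 1, 2 and 3, against 122061 and 116720.0 in WT 1 and WT 2, but 8841 in the library labelled WT 3, which goes against that label. That library and TSP2KO 3 also stood apart for several of the proteoglycans, so each member's fold change is also given without each of them. All 12 fibroblast markers were above 0 in every library, with summed levels of 167441 to 280535 normalised counts in TSP2KO and 173608 to 339682 in WT. Among the 14707 genes tested, 9 passed the threshold of a limma adjusted p under 0.05, or 0.0612% of them, and all 9 were lower in TSP2KO. Leaving out the library labelled WT 3, 761 genes passed, or 5.17%. Of the 12 fibroblast markers, 7 had a negative and 5 a positive log2 fold change (median -0.27), and none passed. Pdgfra had 8460, 4442 and 5845 normalised counts in TSP2KO, against 21543, 14915 and 14328 in WT. Its log2 fold change was -1.46 (SE 0.29, limma adjusted p = 0.162). S100a4 went the other way, at 1.30 (SE 0.45, limma adjusted p = 0.4). With the library labelled WT 3 left out, Pdgfra passed as lower and S100a4 as higher.

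Of the 10 genes, 6 lie in clusters of neighbouring genes, given here with their mm10 coordinates. Dcn (chromosome 10, 97479609 to 97518143), Lum (97565128 to 97572703) and Kera (97606879 to 97613692) follow each other on the plus strand. Dcn and Lum are 47.0 kb apart, and Lum and Kera 34.2 kb. Aspn (chromosome 13, 49544443 to 49567565), Omd (49582462 to 49592822) and Ogn (49608046 to 49624501) also share the plus strand, with gaps of 14.9 kb and 15.2 kb. Prelp (chromosome 1, 133910304 to 133921414, minus strand) and Fmod (134037254 to 134048277, plus strand) are 115.8 kb apart. Bgn (chromosome X, 73483602 to 73495933, plus strand) and Podn (chromosome 4, 108014791 to 108096445, minus strand) lie alone. Each is annotated as protein-coding. Of the Aspn exons, 7 bases overlap Cenpp on the opposite strand, and of the Prelp exons, 350 bases overlap Gm15851, also on the opposite strand. How strand was used in counting is not given in the sources used here, so reads in those stretches cannot be assigned with certainty.

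Upstream sequences are shown for the chromosome 13 trio, whose transcripts had like patterns over the libraries, as the values further on show. They are the 250 bases before the start of each gene in RefSeq on GRCm38.p6, plus strand, 5′ to 3′, at chr13:49544193-49544442 for Aspn, chr13:49582212-49582461 for Omd and chr13:49607765-49608014 for Ogn. Capitals mark matches, on either strand, to TATAAA or GGAATG.
Aspn: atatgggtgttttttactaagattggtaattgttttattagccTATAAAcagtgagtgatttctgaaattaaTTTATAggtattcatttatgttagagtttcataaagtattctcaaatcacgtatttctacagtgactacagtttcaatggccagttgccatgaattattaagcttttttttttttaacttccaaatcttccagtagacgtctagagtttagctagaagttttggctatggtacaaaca
Omd: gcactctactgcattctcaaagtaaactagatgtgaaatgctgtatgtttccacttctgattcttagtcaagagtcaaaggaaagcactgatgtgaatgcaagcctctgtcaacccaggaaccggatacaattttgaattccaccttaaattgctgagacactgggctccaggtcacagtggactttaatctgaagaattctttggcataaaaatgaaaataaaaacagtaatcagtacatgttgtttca
Ogn: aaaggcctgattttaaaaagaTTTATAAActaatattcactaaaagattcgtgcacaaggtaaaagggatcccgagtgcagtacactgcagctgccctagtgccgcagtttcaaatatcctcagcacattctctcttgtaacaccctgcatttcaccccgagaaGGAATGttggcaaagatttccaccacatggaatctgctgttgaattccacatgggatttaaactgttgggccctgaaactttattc

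The letters TATAAA, read on both strands, occurred in 13.62% of 32851 RefSeq promoter windows of 300 bases, which run from 250 bases before to 50 bases after the start. Aspn held 2 matches, beginning at -207 and -178 from the start, and Ogn held 2 overlapping matches, on opposite strands, at -229 and -227. GGAATG, found in 14.66% of windows, occurred in Ogn at -86. Omd held none of the 5 motifs searched, which also included GGGCGG (35.66% of windows), TGANTCA (7.808%) and CAGAC (49.59%). The trio was low in GC, at 31% for Aspn, 37.67% for Omd and 42.33% for Ogn, against a median of 52.67% over all windows. In contrast, the Bgn window had 63.67% GC and 3 matches to GGGCGG, at -34, -10 and -6. A match of letters is not a binding site, and RefSeq windows were matched for 8 of the 10 genes, Dcn and Lum having no entry in the table used.

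Decorin carries a single chondroitin or dermatan sulphate chain and binds type I collagen fibrils. Dcn had 12199.7, 11094 and 2368 normalised counts in TSP2KO 1, 2 and 3, against 50984, 55417 and 38394 in WT 1, WT 2 and the library labelled WT 3. All TSP2KO values lay below all WT values, and the lowest WT library was 3.15 times the highest TSP2KO library. The means were 8554 ± 5386 in TSP2KO and 48265 ± 8831 in WT (SD, n = 3 each). On the log2 scale the difference was -2.80 (SE 0.61, 95% interval -4.22 to -1.38), a 6.97-fold lower level. It missed the threshold (limma adjusted p = 0.182, 177th of 14707 genes by p). Leaving out 1 library gave -2.96 (SE 0.67, limma adjusted p = 0.055) for the library labelled WT 3 and -2.04 (SE 0.25, limma adjusted p = 0.117) for TSP2KO 3.

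Lumican, which carries keratan sulphate and binds the same fibrils, followed the decorin pattern. Lum had 1513, 1385 and 86.4 normalised counts in TSP2KO 1, 2 and 3, against 6822, 7501 and 3674 in the WT libraries in the order of their numbers. Again the groups did not overlap, and TSP2KO 3 was by far the lowest, with an estimated 97 reads, 16.8-fold below the mean of TSP2KO 1 and 2. The level averaged 995 ± 789 in TSP2KO and 5999 ± 2042 in WT (SD, n = 3 each). Its log2 fold change was -3.33 (SE 1.04, 95% interval -5.78 to -0.89, limma adjusted p = 0.341). Leaving out the library labelled WT 3 gave -3.65 (SE 1.15, limma adjusted p = 0.112), and leaving out TSP2KO 3 gave -1.98 (SE 0.34, limma adjusted p = 0.257), so the size of both differences depends on TSP2KO 3.

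In bulk RNA, fewer cells of a type and less RNA per cell cannot be told apart. Dcn and Lum were the only members whose groups did not overlap, 2 of 10, where 8.27% of all genes tested lay wholly lower in TSP2KO 5.9% wholly higher and 14.2% did not overlap in either direction. They were also the members with an unadjusted p under 0.05, 2 of 10 against 9.75% of all genes. None of the 10 passed the threshold with all 6 libraries, nor when any single library was left out. Without both libraries numbered 3, a comparison of 2 against 2 chosen after the data were seen, both passed. Dcn was then at -2.19 (SE 0.20, limma adjusted p = 0.00325) and Lum at -2.30 (SE 0.19, limma adjusted p = 0.00247). In that comparison 4.47% of all genes passed as lower and 4.51% as higher. Both also passed when limma weighted the libraries by their spread, at -2.62 for Dcn (limma adjusted p = 0.0171) and -3.05 for Lum (limma adjusted p = 0.0398), where 13.2% of all genes passed.

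**Figure D1:**
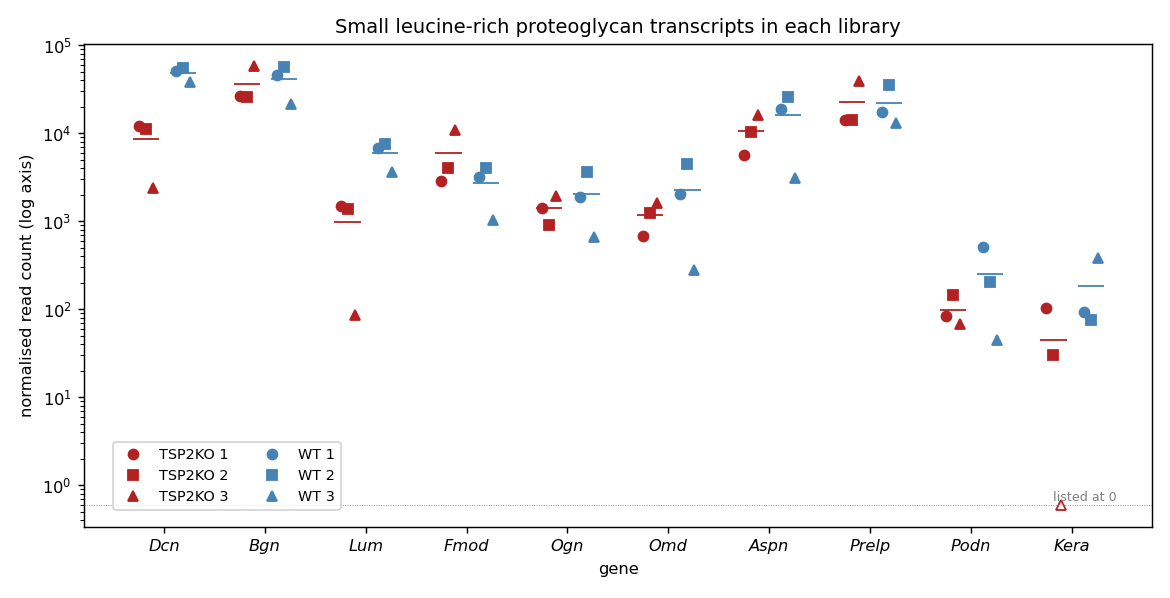
Normalised read counts of the 10 proteoglycan genes on a log axis, with TSP2KO libraries in red left of WT libraries in blue, marker shapes for replicate numbers 1 to 3 and short lines for group means. Dcn and Lum are separated between the groups, while the other 8 genes overlap, and Kera is listed at 0 in TSP2KO 3.

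Keratocan is best known from the cornea, where it keeps collagen fibrils evenly spaced. Kera was low throughout, at 104, 30.2 and 0 normalised counts in TSP2KO 1, 2 and 3, against 92.2, 76.5 and 387 in WT 1, WT 2 and the library labelled WT 3. The last of these was the highest, and TSP2KO 1 lay above WT 1 and WT 2, so the groups overlapped. With 0 reads in TSP2KO 3, a count of 0 allows up to 2.67 normalised counts (3 reads), for counting error only. The fitted log2 fold change of -3.25 (SE 1.61, limma adjusted p = 0.596) depends on the pseudocount, at -4.36 with 0.1 and -2.09 with 10. It depends as much on single libraries, at -1.30 (SE 0.84, limma adjusted p = 0.914) without TSP2KO 3, -2.52 (SE 1.74, limma adjusted p = 0.426) with the library labelled WT 3 left out and -4.66 without TSP2KO 1, and was -0.57 (SE 0.54, limma adjusted p = 0.576) in the 2 against 2 comparison. Btg1 and Atp2b1, the nearest tested genes on either side of the cluster, stood at -0.62 (SE 0.45) and -0.08 (SE 0.17) on the log2 scale. Both are distant: counted from the start of Dcn, Btg1 ends at -856.8 kb and Atp2b1 begins at 1434.8 kb.

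Biglycan, the closest relative of decorin, did not share its pattern. It carries a pair of glycosaminoglycan chains and, when released from the matrix, can act on Toll-like receptors. Bgn had 26511, 25679 and 58411 normalised counts in TSP2KO 1, 2 and 3, against 45986, 56626 and 21381 in WT 1, WT 2 and the library labelled WT 3. TSP2KO 3 was the highest of the 6 and the library labelled WT 3 the lowest, and the ranges overlapped. The means of 36867 ± 18662 in TSP2KO and 41331 ± 18078 in WT (SD, n = 3 each) differed by less than their spread. The log2 fold change was -0.16 (SE 0.47, 95% interval -1.26 to 0.93, limma adjusted p = 0.949). With TSP2KO 3 left out it was -0.55 (SE 0.44, limma adjusted p = 0.93), and with the library labelled WT 3 left out -0.58 (SE 0.40, limma adjusted p = 0.42). In the 2 against 2 comparison Bgn passed at -0.97 (SE 0.22, limma adjusted p = 0.0364).

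The ratio of Dcn to Bgn counts, chosen after the values were seen, was 0.46, 0.432 and 0.0405 in TSP2KO 1, 2 and 3, against 1.11, 0.979 and 1.8 in the WT libraries. The groups did not overlap (log2 difference -2.64, exact permutation p = 0.1, two-sided, the smallest that 3 against 3 can give). The difference was -1.49 with TSP2KO 3 left out (exact permutation p = 0.1) and -2.38 with the library labelled WT 3 left out (exact permutation p = 0.3). A ratio within a library does not depend on how that library was scaled. It shows an unequal difference between the genes, not that either stayed level.

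Fibromodulin and lumican are closely related and bind the same region of type I collagen, fibromodulin mainly at earlier steps of fibril assembly. Fmod had 2890.3, 3998 and 10914 normalised counts in TSP2KO 1, 2 and 3, against 3151, 4062 and 1032 in WT 1, WT 2 and the library labelled WT 3. It was the only member with a positive fold change (log2 fold change 1.08, SE 0.64, limma adjusted p = 0.676, 95% interval -0.42 to 2.59), and this rested on TSP2KO 3 and the library labelled WT 3. Its value was 0.52 (SE 0.58, limma adjusted p = 0.938) without TSP2KO 3 and 0.49 (SE 0.52, limma adjusted p = 0.615) with the library labelled WT 3 left out. With neither of these it was -0.07 (SE 0.24, limma adjusted p = 0.884). The ratio of Lum to Fmod, chosen after the values were seen, was 0.524, 0.346 and 0.00791 in TSP2KO, against 2.16, 1.85 and 3.56 in WT, with no overlap (log2 difference -4.43, exact permutation p = 0.1). This difference was -2.51 with TSP2KO 3 left out (exact permutation p = 0.1) and -4.15 with the library labelled WT 3 left out (exact permutation p = 0.2).

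PRELP binds both collagen and heparan sulphate and is thought to anchor basement membranes to connective tissue. Prelp had 14025, 14244 and 39561 normalised counts in TSP2KO 1, 2 and 3, against 17476, 35833 and 13079 in WT 1, WT 2 and the library labelled WT 3. TSP2KO 3 was again the highest library, as for Bgn and Fmod, and the group means were nearly equal at 22610.3 ± 14680.2 in TSP2KO and 22129 ± 12069.9 in WT (SD, n = 3 each). The log2 fold change was -0.02 with a 95% interval of -1.23 to 1.20 (limma adjusted p = 0.994). It was -0.51 (SE 0.43, limma adjusted p = 0.931) without TSP2KO 3 and -0.33 (SE 0.52, limma adjusted p = 0.744) with the library labelled WT 3 left out, and turned positive without WT 2 (0.40), TSP2KO 1 (0.24) or TSP2KO 2 (0.22). Optc, the gene for opticin, is an SLRP neighbour of Prelp and lay under the filter. Btg2, on the far side of Fmod, was at -0.13 on the log2 scale (SE 0.32).

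**Figure D2:**
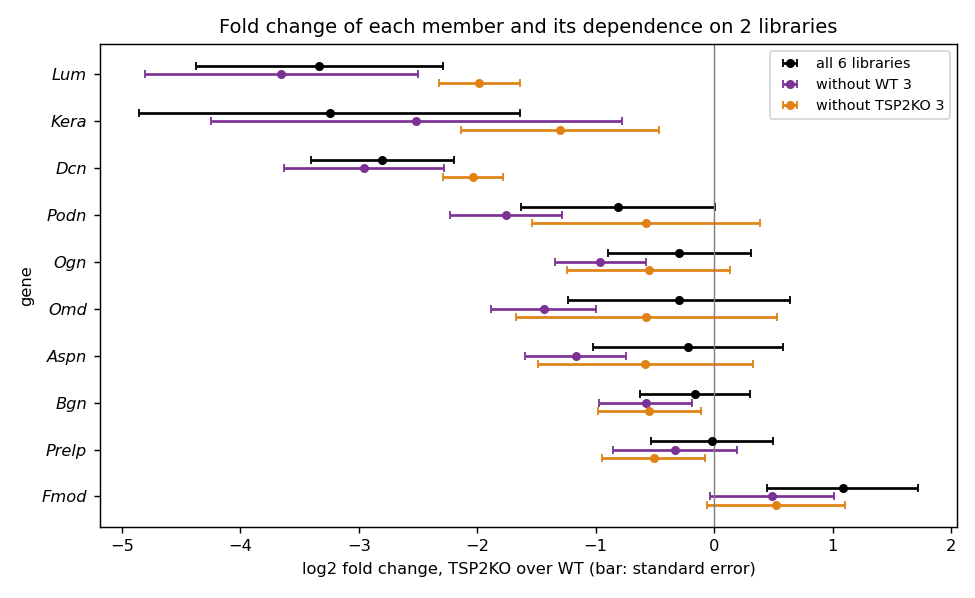
Log2 fold change of each gene, TSP2KO over WT, with its standard error, for all 6 libraries (black), without the library labelled WT 3 (purple) and without TSP2KO 3 (orange). The estimate of every gene but Fmod stays below 0 in all 3 fits, and that of Fmod stays above 0. The sizes for Dcn and Lum, among others, are smaller without TSP2KO 3.

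Asporin competes with decorin for collagen and carries a stretch of aspartate residues in place of a glycosaminoglycan chain. Aspn had 5717, 10262 and 16253 normalised counts in TSP2KO 1, 2 and 3, against 18775, 26156 and 3071 in WT 1, WT 2 and the library labelled WT 3. The TSP2KO values all lay below WT 1 and WT 2, while the library labelled WT 3 was the lowest of the 6, and the mean of WT 1 and WT 2 was 7.32 times its value. The fold change on the log2 scale was -0.22 (SE 0.80, 95% interval -2.10 to 1.66, limma adjusted p = 0.959). With the library labelled WT 3 left out it was -1.17 (SE 0.43, limma adjusted p = 0.154), with TSP2KO 3 left out -0.58 (SE 0.91, limma adjusted p = 0.943), and -1.53 (SE 0.31, limma adjusted p = 0.0266) in the 2 against 2 comparison, where it passed.

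Osteomodulin is a class II member known mainly from bone, where it binds mineral and collagen. Omd had 679.6, 1240.3 and 1633 normalised counts in TSP2KO 1, 2 and 3, against 2049, 4443 and 279 in the WT libraries, where the mean of WT 1 and WT 2 was 11.6 times the value of the library labelled WT 3. The overall log2 fold change was -0.30 (SE 0.94, limma adjusted p = 0.954). With the library labelled WT 3 left out it was -1.44 (SE 0.44, limma adjusted p = 0.107), with TSP2KO 3 left out -0.57 (SE 1.10, limma adjusted p = 0.953), and -1.72 (SE 0.41, limma adjusted p = 0.0433) in the 2 against 2 comparison. Osteoglycin, or mimecan, is a class III member that takes part in collagen fibril formation. Ogn had 1406, 900.1 and 1925 normalised counts in TSP2KO 1, 2 and 3, against 1879.8, 3650.2 and 657 in the WT libraries (log2 fold change -0.30, SE 0.60, limma adjusted p = 0.916). Its fold change was -0.55 (SE 0.69, limma adjusted p = 0.938) without TSP2KO 3 and -0.96 (SE 0.39, limma adjusted p = 0.188) with the library labelled WT 3 left out. Both genes thus put the library labelled WT 3 lowest of all 6 and WT 2 highest.

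Ecm2, a matrix gene with leucine-rich repeats that lies 11.7 kb before Aspn, had 239.6, 244 and 526 normalised counts in TSP2KO 1, 2 and 3, against 329, 654 and 191 in the WT libraries (log2 fold change -0.14, SE 0.50, limma adjusted p = 0.959). Cenpp, a centromere protein gene that spans the trio on the minus strand, had 70.6, 63.0 and 38.1 in TSP2KO, against 14.7, 22.7 and 74.9 in WT (log2 fold change 0.89, SE 0.60, limma adjusted p = 0.71). Ippk and Nol8, on either side of the trio, stood at 0.27 (SE 0.20) and 0.15 (SE 0.26).

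Podocan, a collagen-binding member described in vessels and kidney, had low counts in every library. Podn had 84.5, 146 and 67.7 normalised counts in TSP2KO 1, 2 and 3, against 509, 202 and 44.3 in WT 1, WT 2 and the library labelled WT 3. The WT libraries spread more widely than the TSP2KO libraries and enclosed them (log2 fold change -0.81, SE 0.82, limma adjusted p = 0.801). The difference rested on WT 1, the highest library: without it the log2 fold change was -0.01. With WT 1 and WT 2 alone as WT it was -1.76 (SE 0.47, limma adjusted p = 0.0765), and without TSP2KO 3 it was -0.58 (SE 0.96, limma adjusted p = 0.944).

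Over the 10 genes, 9 had a negative and 1 a positive log2 fold change, with a median of -0.30, against -0.01 over all genes tested. Single libraries decided these counts. With WT 2 left out, 4 were negative and 6 positive (median 0.20), and with TSP2KO 1 left out 5 and 5 (median -0.15). With the library labelled WT 3 left out the split was 9 and 1 (median -1.30, against -0.03 over all genes). That library was the lowest of the 6 for 7 of the genes and the lowest WT library for 9, and WT 2 was the highest WT library for 8. In the 2 against 2 comparison, 5 of the 10 genes passed, all lower in TSP2KO (Dcn, Lum, Aspn, Bgn and Omd), where 8.98% of all genes passed in either direction. None passed without the library labelled WT 3, where 2.75% of all genes passed as lower and 2.43% as higher.

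Markers of other skin cells differed between the libraries, and their part in these results was not tested. The 13 macrophage markers summed to 702 to 817 normalised counts in TSP2KO and 3226 to 5917 in WT. Of the 13, 2 passed as lower (C1qb and Cd74), where 0.0612% of all genes did. With the library labelled WT 3 left out, 10 passed as lower, where 2.75% of all genes did. The groups did not overlap for 12 of the 13, all lower in TSP2KO, beside 8.27% of all genes tested. The 12 keratinocyte markers summed to 18408, 15099 and 619 in TSP2KO 1, 2 and 3, against 1906, 649 and 52856 in WT 1, WT 2 and the library labelled WT 3. None of the 9 tested passed with all 6 libraries. In the 2 against 2 comparison, 8 of these 9 passed, as did 10 of the 13 macrophage markers. There 8.98% of all genes passed in either direction. The library labelled WT 3, with the lowest Aspn, Omd and Ogn, thus had the highest keratinocyte sum. TSP2KO 3, with the lowest Dcn and Lum, and WT 2, with the highest, had nearly equal low sums. The 8 endothelial markers, of which none passed with all 6 libraries, summed to 2182, 2117 and 548 in TSP2KO 1, 2 and 3. Their sums were 1343, 537 and 5122 in WT 1, WT 2 and the library labelled WT 3, in much the same order as the keratinocyte sums. With the library labelled WT 3 left out, Emcn passed as higher, where 2.43% of all genes did.

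**Figure D3:**
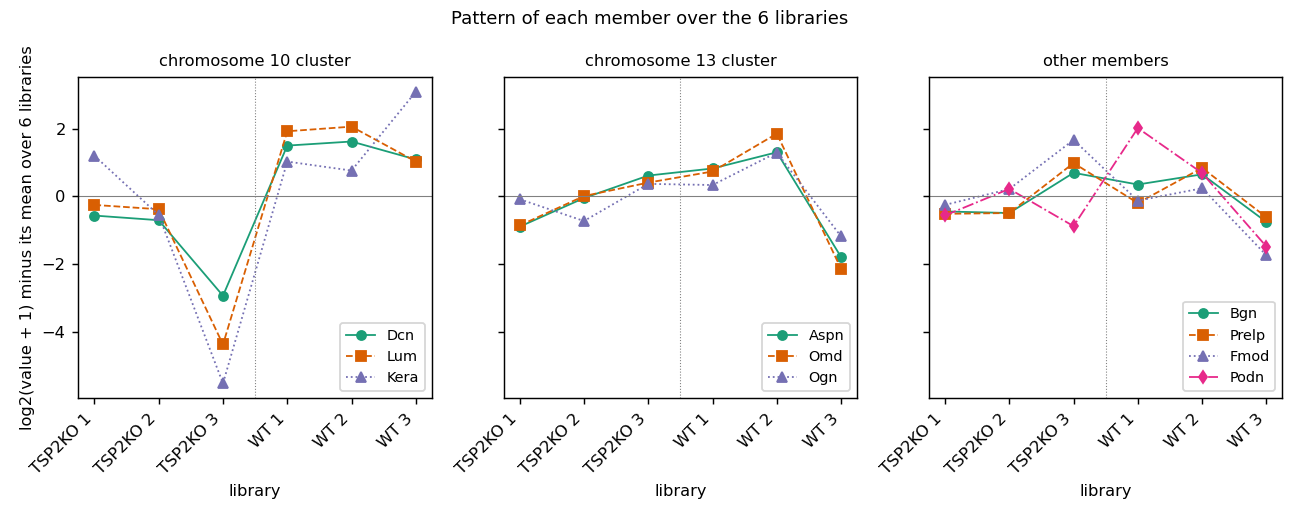
Log2(value + 1) of each gene minus its mean over the 6 libraries, TSP2KO 1 to 3 left of WT 1 to 3, in panels for the chromosome 10 genes, the chromosome 13 genes and the others. Dcn and Lum dip at TSP2KO 3, while Aspn, Omd and Ogn dip at the library labelled WT 3.

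Pairs within a cluster had like patterns, given as a description over 6 libraries that share depth and make-up differences. Pearson's r of log2 values was 0.98 for Dcn and Lum and 0.98 for Aspn and Omd, with Spearman's rho of 1.00 for each pair. Ogn had r = 0.86 with Aspn and 0.89 with Omd. Kera followed Dcn less closely (r = 0.85, rho = 0.49). Across chromosomes, Bgn went with Prelp (r = 0.91), Aspn (r = 0.90) and Ogn (r = 0.89), but not with Dcn (r = -0.12). Likeness was thus not confined to pairs within a cluster. The ratio of Dcn to Lum was 8.06, 8.01 and 27.4 in TSP2KO, against 7.47, 7.39 and 10.4 in WT, so TSP2KO 3 had less Lum than its Dcn level went with elsewhere. The ratio of Aspn to Omd stayed between 8.27 and 9.95 in TSP2KO and between 5.89 and 11.0 in WT, although the Omd values ranged over more than an order of magnitude.

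Among all genes tested, the 5 with the pattern most like that of Dcn were Mapk6 (r = 0.997), Eps8 (0.996), Myl12b (0.994), Lamc1 (0.992) and Cd33 (0.992), and Lum ranked 28th. Eps8, an adaptor of receptor tyrosine kinases, had 72.4, 59.9 and 23.1 normalised counts in TSP2KO 1, 2 and 3, against 198, 180.1 and 162 in the WT libraries. Mapk6, an atypical MAP kinase, had the same shape on a smaller scale, at 3728, 3736 and 2763 in TSP2KO, against 4684, 4943 and 4577 in WT. For Bgn, the member with the highest mean count, the 5 were Nedd4, Dynlt3, Rfesd, Snx4 and Atg10, with r between 0.992 and 0.995. Nedd4, a ubiquitin ligase, had 19084, 18343 and 28625 in TSP2KO, against 25198, 26962 and 17623 in WT.

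Divided by merged exon length, the counts can be set side by side between genes. In TSP2KO, Bgn came first with 15240.5 ± 7715 normalised counts per kb (SD, n = 3), ahead of Prelp with 6255 ± 4061, Aspn with 4564 ± 2245 and Dcn with 4068 ± 2561. In WT, Dcn came first with 22950.5 ± 4199 counts per kb, ahead of Bgn with 17086 ± 7473, Aspn with 6797 ± 5008 and Prelp with 6122 ± 3339. Bgn stood first in each TSP2KO library, where Dcn stood at rank 2, 2 and 5, while Dcn stood first and Bgn next in each WT library.

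Below these, the TSP2KO order was Fmod with 1795 ± 1315, Ogn with 549.7 ± 199.7, Omd with 527 ± 213, Lum with 406 ± 322, Podn with 30.8 ± 12.8 and Kera with 19.6 ± 23.5 counts per kb. The WT order was Lum with 2451 ± 834, Omd with 1004 ± 929, Fmod with 831 ± 470.3, Ogn with 804 ± 587, Kera with 81.3 ± 76.8 and Podn with 78.0 ± 73.2. By group mean, Lum was thus at rank 8 in TSP2KO and rank 5 in WT. By library, it stood at rank 6, 6 and 8 in TSP2KO 1, 2 and 3, against 5, 5 and 4 in the WT libraries. Of the 9 pairs of neighbours in each order, the means differed by more than the larger SD in 2 pairs in TSP2KO (Bgn over Prelp, Lum over Podn) and in 4 pairs in WT (Bgn over Aspn, Prelp over Lum, Lum over Omd, Ogn over Kera).

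As a share of the summed counts per kb of all 10, Dcn made up 22.8, 19.6 and 2.35% in TSP2KO 1, 2 and 3, against 39.3, 33.5 and 53.1% in WT 1, WT 2 and the library labelled WT 3. Bgn made up 43.0, 39.4 and 50.4% in TSP2KO, against 30.8, 29.8 and 25.7% in WT. Prelp made up 15.2, 14.6 and 22.8% in TSP2KO, against 7.84, 12.6 and 10.5% in WT. The groups did not overlap for the shares of Dcn, Lum, Bgn, Fmod and Prelp, the first pair smaller and the last 3 larger in TSP2KO, and each gave an exact permutation p of 0.1, the smallest possible. These shares were picked after all 10 had been seen, and shares add up to 100%, so a smaller share of Dcn by itself enlarges the others.

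**Figure D4:**
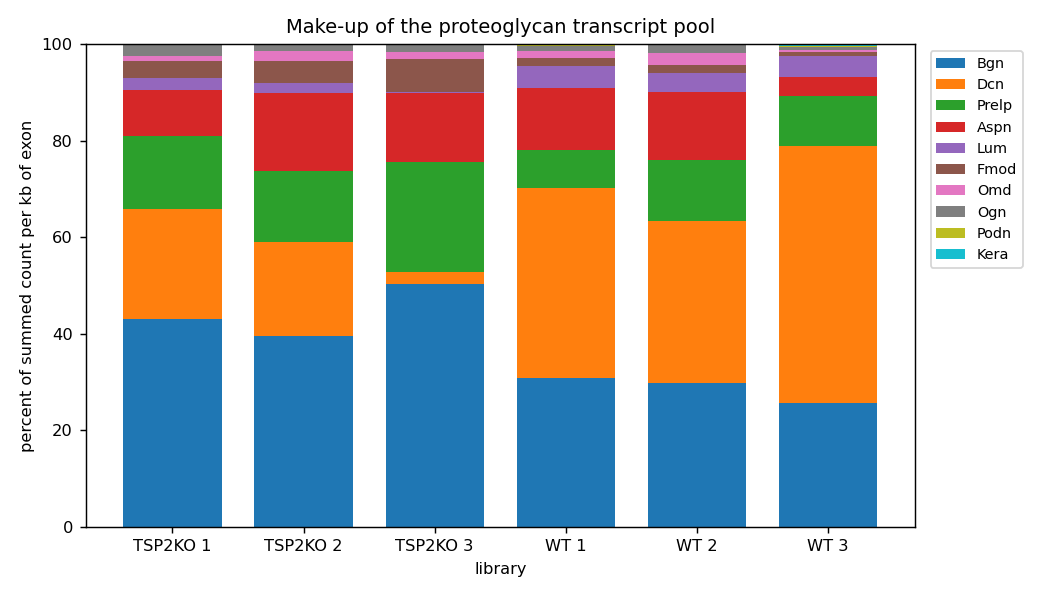
Percent of the summed normalised counts per kb of exon held by each of the 10 genes, stacked to 100% for TSP2KO 1 to 3 on the left and WT 1 to 3 on the right. Dcn holds 2.35% to 22.8% in the TSP2KO libraries and 33.5% to 53.1% in the WT libraries, where Bgn holds less than in TSP2KO.

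The 10 genes together had 65131, 68979.7 and 131220.0 normalised counts in TSP2KO 1, 2 and 3, against 147724, 193966 and 81999 in WT 1, WT 2 and the library labelled WT 3. This was 0.563, 0.601 and 0.997% of all normalised counts in TSP2KO, against 1.15, 1.43 and 0.700% in WT. The log2 difference of the sums was -0.66 (exact permutation p = 0.2), and -0.19 with Dcn left out of the sum (exact permutation p = 0.9). Leaving out single libraries moved the sum from -1.01 (the library labelled WT 3) to -0.39 (WT 2). The sum without Dcn was -0.66 with the library labelled WT 3 left out and -0.59 with TSP2KO 3 left out. TSP2KO 3 lay above the library labelled WT 3, and the groups overlapped in both sums.

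Since these proteins coat collagen fibrils, each gene was also set against the summed fibrillar collagen transcripts Col1a1, Col1a2, Col3a1, Col5a1 and Col5a2 of its own library. That sum was 137285, 153378 and 261183 normalised counts in TSP2KO 1, 2 and 3, against 280150.0, 291782 and 132673 in the WT libraries (log2 difference -0.33, exact permutation p = 0.6). Per 1000 collagen counts, Dcn had 88.9, 72.3 and 9.07 in TSP2KO, against 182, 189.9 and 289 in WT. Lum had 11.0, 9.03 and 0.331 in TSP2KO, against 24.4, 25.7 and 27.7 in WT, where the library labelled WT 3 was level with the other two. Fmod had 21.1, 26.1 and 41.8 in TSP2KO, against 11.2, 13.9 and 7.77 in WT. For these 3 of 9 genes the groups did not overlap, Dcn and Lum lower and Fmod higher in TSP2KO. The share of all genes whose ratio to this sum separates the groups was not computed.

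The log2 differences of these ratios were -2.47 for Dcn, -3.01 for Lum and 1.41 for Fmod, each with an exact permutation p of 0.1 and 0.3 after Benjamini-Hochberg adjustment over 9 genes. No p of this design can fall below 0.1. With any single library left out, the Fmod ratio stayed between 1.13 and 1.63 on the log2 scale, the Dcn ratio between -3.07 and -1.43 and the Lum ratio between -3.90 and -1.38. Bgn kept close to the collagens, with 193, 167 and 224 per 1000 in TSP2KO, against 164, 194 and 161 in WT (log2 difference 0.16, exact permutation p = 0.3). Prelp, Aspn, Ogn, Omd and Podn lay between -0.49 and 0.31, with exact permutation p between 0.5 and 1. Kera, at 0 in TSP2KO 3, was left out.

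**Figure D5:**
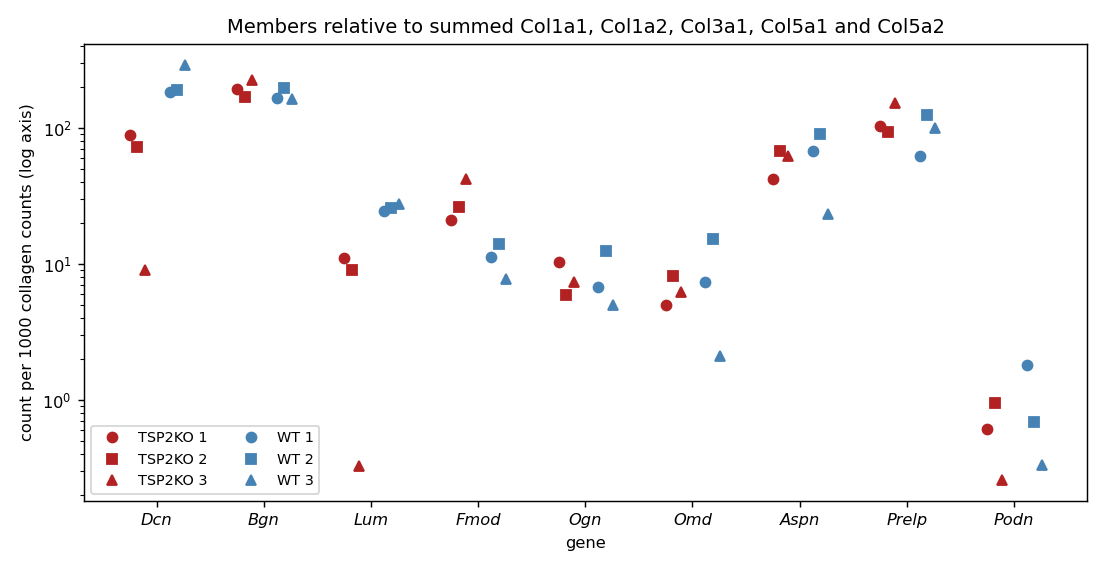
Counts of 9 proteoglycan genes per 1000 counts of Col1a1, Col1a2, Col3a1, Col5a1 and Col5a2 summed, on a log axis, TSP2KO libraries in red left of WT libraries in blue. Dcn and Lum are lower and Fmod is higher in all TSP2KO libraries than in all WT libraries, and Bgn lies between 161 and 224 in all 6.

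Other genes of the pathway were counted from lists. Of 15 fibrillar and fibril-associated collagens tested out of 17 listed, none passed, and the median log2 fold change was 0.08. Col14a1, a fibril-associated collagen that binds decorin, had 166, 86.7 and 138 normalised counts in TSP2KO, against 297, 298 and 174 in WT (log2 fold change -0.98, SE 0.33, limma adjusted p = 0.389). Col6a2, a chain of the type VI collagen that decorin and biglycan bind, had 11107, 15301 and 16605 in TSP2KO, against 10378, 9856 and 8729.6 in WT (log2 fold change 0.55, SE 0.21, limma adjusted p = 0.452). The groups did not overlap for either gene, the first lower and the second higher in TSP2KO. Of the 15 tested, 1 lay wholly lower and 1 wholly higher, beside 8.27% and 5.9% of all genes tested. Other leucine-rich repeat genes of matrix and membrane, 7 tested of 11 listed, had a median of 0.30 and none passed.

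Among the 25 tested of 26 enzymes that build the linker and the chondroitin or dermatan sulphate chains, none passed and the median was 0.00. Of these 25, 2 lay wholly lower and 3 wholly higher in TSP2KO, beside 8.27% and 5.9% of all genes tested. Papss2, which makes the sulphate donor, had 1206, 1220.1 and 1323 normalised counts in TSP2KO, against 337, 645 and 691 in WT, with no overlap (log2 fold change 1.23, SE 0.29, limma adjusted p = 0.21). Against WT 1 and WT 2 alone, where 2.75% of all genes passed as lower and 2.43% as higher, it passed as higher at 1.42 (SE 0.28, limma adjusted p = 0.0392). Chst3, a chondroitin 6-sulphotransferase, then passed as lower at -2.82 (SE 0.50, limma adjusted p = 0.0301), with 63.8, 115 and 41.0 counts in TSP2KO, against 722, 319 and 109.7 in WT. The 6 keratan sulphate enzymes tested of 9 had a median of -0.02 and no call.

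The list of procollagen and proteoglycan processing enzymes had the lowest median of the 7 lists, at -0.74 over the 14 genes tested of 16, and none passed. The collagenase Mmp13 had 506, 808 and 155 normalised counts in TSP2KO, against 10579.6, 5234 and 987 in WT (log2 fold change -3.25, SE 0.93, limma adjusted p = 0.304). With the library labelled WT 3 left out, Mmp13, Adamts1, Adamts2, Adamts5 and Bmp1 passed, 5 of 14 and all lower in TSP2KO, where 2.75% of all genes passed as lower. Adamts2, which trims the amino end of procollagen, was then at -1.88 (SE 0.21, limma adjusted p = 0.0127). Bmp1, which trims the carboxyl end of procollagen and the propeptide of biglycan, was at -1.21 (SE 0.25, limma adjusted p = 0.0424).

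Other matrix proteoglycans, 19 tested of 24, had a median of 0.15, and none passed. Cspg4, the cell-surface proteoglycan NG2, had 4084, 3749 and 5362 normalised counts in TSP2KO, against 467, 447 and 1997 in WT (log2 fold change 2.54, SE 0.56, limma adjusted p = 0.19). Against WT 1 and WT 2 alone, Cspg4 and Esm1 passed as higher, Cspg4 at 3.25 (SE 0.20, limma adjusted p = 0.00405), while Agrn and Sdc2 passed as lower, so that 4 of 19 passed, beside 5.17% of all genes.

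Of 21 binding partners and receptors of decorin and biglycan tested out of 23, none passed, and the median was -0.23. The groups did not overlap for 6 genes lower and 3 genes higher in TSP2KO, where 8.27% of all genes tested lay wholly lower and 5.9% wholly higher. Egfr, a receptor that decorin binds, had 1266, 1438 and 938 normalised counts in TSP2KO, against 3082, 3434 and 2683 in WT (log2 fold change -1.35, SE 0.21, limma adjusted p = 0.11). Tlr2, a receptor for biglycan, had 395, 398 and 340.1 in TSP2KO, against 663, 799 and 1122 in WT (log2 fold change -1.16, SE 0.23, limma adjusted p = 0.162). Its co-receptor Cd14 had 39.1, 57.6 and 41.0 in TSP2KO, against 229, 139 and 241 in WT (log2 fold change -2.10, SE 0.31, limma adjusted p = 0.0974). Tgfb3, one of the growth factors that decorin sequesters, had 5406, 7082 and 7419 in TSP2KO, against 3837, 2247 and 2587 in WT (log2 fold change 1.22, SE 0.25, limma adjusted p = 0.172). Macrophages, whose markers were also lower in TSP2KO, express Cd14 and Tlr2 as well, and their part here was not tested. Against WT 1 and WT 2 alone, Egfr, Tlr2 and Cd14 passed as lower and Eln, the elastin gene, as higher, 4 of 21 beside 5.17% of all genes.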

How the data were processed

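The authors deposited a signal per gene, which the name of their table calls normalised counts, for 23407 genes in 6 libraries. Per the submitters' processing notes, the build was mm10 and STAR, Partek, DESeq2, Cell Ranger and Seurat 5.0.3 were used, with no role or order. The counting options were not stated in the sources used here. Between 68.6% and 73.9% of values above 0 were whole multiples, within 0.02, of an estimated value of 1 read, so whole reads were not recovered and no count test was run. Estimated depth was 14776502 to 34599855 reads per library.

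Values were taken as log2(value + 1), which understates differences of low genes. The 14707 genes with a mean of at least 10 were compared with limma 3.58.1 (R 4.3.3), using a mean-variance trend, two-sided, with Benjamini-Hochberg adjustment over all of them. A gene passed at an adjusted p under 0.05. Single values per library were compared with a two-sided exact permutation test over libraries. Locations and merged exon lengths came from GENCODE M21, identical in coordinates for 96.4% of genes once 1 base was taken off the deposited end, and upstream sequences from RefSeq. Proteins of the members were not analysed here.

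Members and lists were chosen with earlier results of these data known. The text names all members, Thbs2, cluster neighbours, up to 4 genes with the smallest p per list, and the 5 genes most like Dcn and Bgn. Other genes of the lists that passed without the library labelled WT 3 are named after their values were seen. The lists cover 7 sets of partner genes and markers of 11 cell types. Of the markers not described further, none passed with all 6 libraries (mural cells 7, melanocytes 5, Schwann cells 5, adipocytes 1, skeletal muscle 1, chondrocytes and osteoblasts 2, tenocytes 2). With the library labelled WT 3 left out, Cspg4 (mural cells), Acta1 (skeletal muscle) and Sp7 (chondrocytes and osteoblasts) passed as higher. Mitf (melanocytes) then passed as lower. In that comparison 2.43% of all genes passed as higher and 2.75% as lower. Alternatives were other pseudocounts, filters, scalings and variance models, a replicate block, and leaving out each library.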

Additional observations from a re-analysis of the deposited data

How the results depend on the processing

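In all, 469 alternative values of 33 results were computed, and 376 were classed as the same. For this, fold changes had to keep their direction and their side of the threshold, and counts of genes had to move little. Sums and ratios had only to keep their direction, whatever their size. For the others the cause was not tested. The count of genes lower in TSP2KO was 9 as reported, 0 with a pseudocount of 0.1, 14 with 10, 0 with no filter, 0 with a mean of at least 100, 0 after quantile normalization, 15 without the trend, 1094 with array weights, 657 with both libraries numbered 3 left out (chosen after seeing the data), and 0 to 404 with single libraries left out. The count of genes higher was 0, 853 with array weights, 664 with both left out, and 0 to 357 with single libraries left out. Members past the threshold were 0 as reported and with any single library left out, 2 with array weights (Dcn and Lum) and 5 with both left out.

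With array weights and with both left out, where 13.2% and 8.98% of all genes passed, calls were 1 and 1 of 7 leucine-rich repeat genes, 4 and 2 of 15 collagens, 4 and 3 of 25 chain enzymes, 7 and 6 of 14 processing enzymes, 6 and 6 of 19 other proteoglycans, 10 and 6 of 21 binding partners, and, with array weights, 1 of 6 keratan sulphate enzymes. Single libraries left out gave 0 to 2 for chain enzymes, 0 to 5 for processing enzymes, 0 to 4 for other proteoglycans and 0 to 4 for binding partners.

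Log2 fold changes that turned in sign had ranges, over single libraries left out, of -0.58 to 0.12 for Bgn, -0.96 to 0.28 for Ogn, -1.44 to 0.56 for Omd, -1.17 to 0.37 for Aspn and -0.51 to 0.40 for Prelp, which was 0.0821 after quantile normalization. Fmod was -0.0738 with both libraries left out. Dcn stayed between -3.22 and -2.04 and Lum between -4.04 and -1.98. Ratios to collagen turned for Bgn (-0.0309 after quantile normalization), Ogn (-0.12, then -0.24 with both left out, range -0.27 to 0.40), Omd (-0.12, -0.74, range -0.74 to 0.68), Aspn (-0.0167, -0.55, range -0.48 to 0.50) and Podn (range -1.07 to 0.15).

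The labels do not say whether the replicate numbers pair the samples. Deviations of same-numbered libraries correlated at -0.42, -0.25 and -0.39, but with 3 libraries per group this cannot settle the pairing. With the replicate number as a block, 0 genes passed. The SE of Dcn was then 0.43, against 0.61 without the block, with a limma adjusted p of 0.116. That of Lum was 0.64, against 1.04 without the block, with a limma adjusted p of 0.154. Depth limits Kera and Podn most.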

Other observations

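Over the 6 libraries, as a description, log2 values of Podn and Thbs2 had Pearson's r = 0.81 and Spearman's rho = 0.66, with Dcn at 0.76 and 0.89 and Lum at 0.72 and 0.89. Fmod and Thbs2 had r = -0.08 and rho = -0.26. Fmod and Kera ran opposite to each other, with r = -0.93 and rho = -0.94. This was the lowest r among all pairs of the members and Thbs2. Kera was at 0 in TSP2KO 3 and highest in the library labelled WT 3. The pairs with Thbs2 include that library, whose Thbs2 level goes against its label.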
